A study of Mus musculus with 9 samples.

Results

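Thyroid hormone-induced genes of the liver were followed in mice that lacked the nuclear receptor corepressors SMRT and NCoR in that organ. The set held 8 genes known as positive targets of thyroid hormone in liver, namely Thrsp, Dio1, Me1, Gpd2, Klf9, Bcl3, Hr and Idh3a. All 8 were found among the 22180 genes with a single gene symbol on the array, each with 1 probe set, so no choice between probe sets had to be made for them. RNA of 9 livers was measured, 1 Affymetrix whole-transcript array per mouse. Double KO livers (3 mice) lacked both SMRT and NCoR, SMRT KO livers (3 mice) lacked SMRT, and control livers (3 mice) carried floxed alleles of both genes. All 9 mice were euthyroid females aged 7 to 9 weeks, of a 129SV/B6 mixed background and on standard chow. The study's design text calls the deletions liver specific, and the labels do not name the Cre driver or the NCoR alleles of the SMRT KO mice. The targeted genes themselves were not analysed here, so the genotypes rest on the labels. No group lacked NCoR alone. Double KO set against SMRT KO is therefore the comparison in which the loss of NCoR was added, on livers without SMRT.

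Thyroid hormone acts through nuclear receptors that stay bound at their target genes, usually beside a retinoid X receptor. Without hormone the receptor holds NCoR or SMRT, which bring a histone deacetylase and keep the gene low. With hormone the receptor exchanges them for coactivators and transcription rises. In liver this response is best known for genes of fatty acid synthesis, of mitochondrial fuel use and of the hormone's own conversion.

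Values are log2 expression after RMA, so a difference of 1 is a 2-fold change of the array signal. Array medians lay between 5.96 and 6.02, and arrays correlated over all genes at 0.992 to 0.996 inside a group and at 0.989 to 0.994 across groups. The lowest value of the 8 genes on any array was 6.18, against a median of 3.84 for the mean level of 1394 olfactory and vomeronasal receptor genes, taken as background. Liver was checked by markers of hepatocytes, whose 10 genes all lay at 11.2 or above on every array. In bulk tissue, fewer cells of a type and less RNA per cell cannot be told apart. Of 49 markers of 7 cell types, 1 was called in double KO against control livers, the same 1 in double KO against SMRT KO livers, and 0 in SMRT KO against control livers. This gene was Lrat, the retinol-esterifying enzyme of stellate cells, which was 3.49-fold lower in double KO than in control livers (limma adjusted p = 0.000397). The summed linear signal of the 10 hepatocyte markers was 94209 to 96916 in double KO, 99849 to 104001 in SMRT KO and 100775 to 104247 in control livers. That of the 7 stellate cell markers was 4011 to 5405 in double KO, 5089 to 6023 in SMRT KO and 4707 to 5753 in control livers. That of the 10 macrophage markers was 4348 to 5137 in double KO, 5226 to 6077 in SMRT KO and 4359 to 5133 in control livers. The hepatocyte sum was lowest in the double KO livers, the macrophage sum was highest in the SMRT KO livers, and the stellate cell sums overlapped. The cholangiocyte sum was higher in double KO (358.3 to 394.1) than in control livers (299.4 to 350.8). The lymphocyte sum was just higher in SMRT KO (461.0 to 521.9) than in control livers (430.2 to 460.6). Endothelial and adipocyte sums overlapped between all groups, and no marker stood at 0. The part of these sums in the results that follow was not tested.

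Me1 and Gpd2 rose in double KO livers, and they did so against both other groups. In double KO against control livers 2 of the 8 genes rose and 0 fell at an adjusted p below 0.05, where 0.523% of all genes tested rose, 0.320% fell and 0.843% changed in either direction. In double KO against SMRT KO livers 2 of 8 rose and 0 fell, where 0.748% of all genes rose, 0.437% fell and 1.19% changed in either direction. Both comparisons share the double KO mice, so they are not separate evidence for the same rise. With 3 arrays a group the number of mice limits the precision. A p measures only the spread between these mice, pooled over the 3 groups and drawn by limma toward that of all genes. In SMRT KO against control livers limma called 0 of the 8 genes, where it called 0.00451% of all genes, and 1 of the 8 had an unadjusted p under 0.05.

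Me1 encodes the cytosolic malic enzyme, which makes NADPH for fatty acid synthesis. Its log2 level was 12.28, 12.22 and 12.14 in the 3 double KO livers, against 11.02, 10.77 and 10.01 in SMRT KO livers and 10.76, 10.68 and 10.97 in control livers. The double KO livers lay above all other livers with little spread among them, while SMRT KO and control livers overlapped. Me1 averaged 12.21 ± 0.0732 in double KO, 10.60 ± 0.522 in SMRT KO and 10.80 ± 0.148 in control livers (SD, n = 3 each). The rise was 2.66-fold against control (log2 fold change 1.41, standard error 0.213, 95% interval 0.93 to 1.89, limma adjusted p = 0.0195). Against SMRT KO livers Me1 was 3.06-fold higher (log2 fold change 1.61, standard error 0.213, limma adjusted p = 0.00809). With each mouse left out in turn the call against SMRT KO stayed in all 9 fits, with adjusted p of 0.00465 to 0.0480. The call against control was lost without any of the 3 double KO or the 3 control mice (adjusted p up to 0.0942), while the log2 fold change stayed between 1.35 and 1.49.

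Gpd2 encodes the mitochondrial glycerol phosphate dehydrogenase, which passes electrons from cytosolic glycerol phosphate to the respiratory chain. Its log2 level was 9.43, 9.28 and 9.41 in double KO, 8.49, 8.38 and 7.87 in SMRT KO and 8.30, 8.59 and 8.58 in control livers. As for Me1, the double KO livers stood clear of the other 6 and the other 2 groups overlapped. The rise was 1.84-fold against control (log2 fold change 0.88, standard error 0.152, limma adjusted p = 0.0346) and 2.18-fold against SMRT KO livers (log2 fold change 1.12, standard error 0.152, adjusted p = 0.00875). With each mouse left out in turn the call against SMRT KO stayed in all 9 fits, with adjusted p up to 0.0442. The call against control held only without SMRT KO replicate 1 or 3, and its adjusted p reached 0.133 without double KO replicate 1. With the labels' replicate number as a block it was 0.0735.

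Thrsp, a promoter of hepatic lipid synthesis that is long used as a readout of thyroid hormone action, was also highest in the double KO livers and did not pass. Its log2 level was 11.04, 11.27 and 10.98 in double KO, 9.90, 10.52 and 9.10 in SMRT KO and 10.23, 9.00 and 10.14 in control livers. All 3 double KO livers exceeded the other 6, and Thrsp spread widely among the SMRT KO livers (SD 0.711) and the control livers (SD 0.684). Thrsp was 2.47-fold higher in double KO than in control livers (log2 fold change 1.30, standard error 0.380, 95% interval 0.45 to 2.16, limma adjusted p = 0.217). Against SMRT KO the log2 fold change was 1.26 (adjusted p = 0.226), and 0 of 17 alternatives brought either difference below 0.05.

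Idh3a encodes the catalytic subunit of the NAD-dependent isocitrate dehydrogenase of the citric acid cycle. Its log2 level was 9.87, 9.91 and 9.75 in double KO, 9.12, 9.67 and 8.98 in SMRT KO and 9.36, 9.43 and 9.56 in control livers. Again the double KO livers lay above the other 6. The log2 fold change was 0.39 against control (standard error 0.157, limma adjusted p = 0.399) and 0.58 against SMRT KO (standard error 0.157, adjusted p = 0.158). Without SMRT KO replicate 2, the highest of its group, the difference from SMRT KO was 0.79 and passed (adjusted p = 0.0110, in a range of 0.0110 to 0.388 over 17 alternatives).

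**Figure D1:**
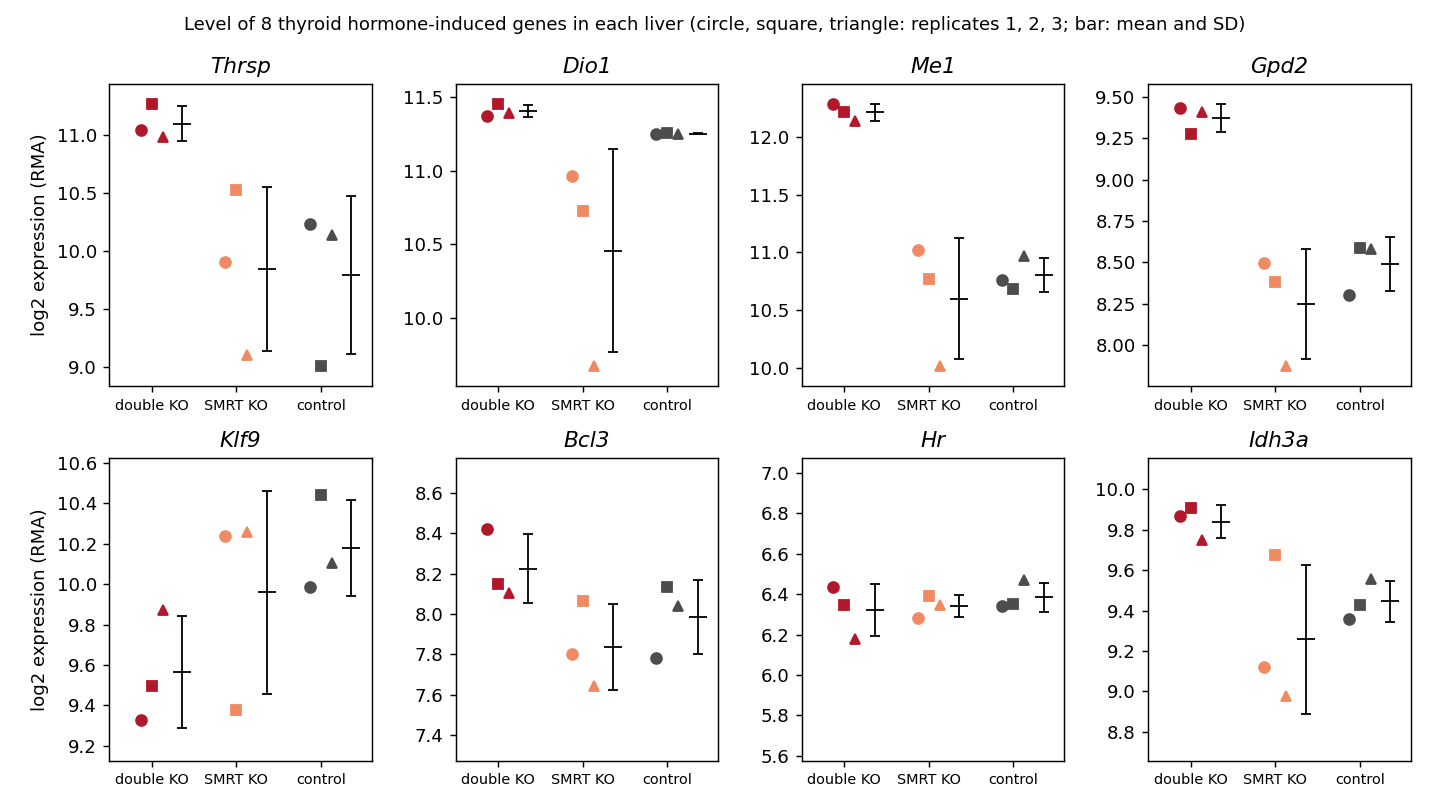
Log2 expression (RMA, each panel with its own range) of the 8 genes in the 3 double KO, 3 SMRT KO and 3 control livers; circles, squares and triangles are replicates 1, 2 and 3, and black bars give mean and SD. Me1, Gpd2, Thrsp, Idh3a and Dio1 show the double KO livers above all others, Dio1 also shows SMRT KO replicate 3 at 9.67, and Hr stays between 6.18 and 6.47.

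The sequence before the transcription start is shown for the 2 genes that rose and for Thrsp, which had the largest fold change in double KO against control livers among the members that did not pass. RefSeq windows of assembly GRCm38.p6 were available for 6 of the 8 genes, all but Hr and Idh3a, and the 250 bases before the most upstream start were searched on both strands. The motifs were AGGTCA, the core element of thyroid hormone receptors and related receptors, the forms GGGTCA and AGGTGA that differ from it in 1 base, and the direct repeat of AGGTCA with 4 bases between its 2 copies. Capitals mark a match on either strand.
Me1 (chr9:86695915-86696164, minus strand): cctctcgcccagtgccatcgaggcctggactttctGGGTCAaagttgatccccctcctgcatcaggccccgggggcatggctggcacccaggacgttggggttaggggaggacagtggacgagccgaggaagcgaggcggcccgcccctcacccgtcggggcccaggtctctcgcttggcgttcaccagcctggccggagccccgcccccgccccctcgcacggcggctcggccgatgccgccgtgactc
Gpd2 (chr2:57237428-57237677, plus strand): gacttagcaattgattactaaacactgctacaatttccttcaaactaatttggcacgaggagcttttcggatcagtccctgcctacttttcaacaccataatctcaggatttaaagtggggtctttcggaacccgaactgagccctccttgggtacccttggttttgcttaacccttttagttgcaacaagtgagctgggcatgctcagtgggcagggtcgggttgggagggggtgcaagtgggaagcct
Thrsp (chr7:97417551-97417800, minus strand): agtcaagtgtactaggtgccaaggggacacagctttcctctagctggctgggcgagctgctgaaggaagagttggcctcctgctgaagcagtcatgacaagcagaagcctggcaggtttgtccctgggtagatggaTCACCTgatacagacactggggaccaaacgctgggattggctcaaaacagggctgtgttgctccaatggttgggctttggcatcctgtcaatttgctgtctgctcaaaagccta
Me1 held 1 GGGTCA, starting 215 bases before the start, and Thrsp held 1 AGGTGA on the opposite strand, at 114 bases. Neither AGGTCA nor its direct repeat was in any of the 6 windows. Only exact matches were sought, so copies that differ from these motifs, alone or as a repeat, stay in lower case. The absence of a mark therefore does not show that a window lacks a thyroid hormone response element. Among all 32851 windows of this length, 14.02% held AGGTCA, 11.6% GGGTCA, 14.5% AGGTGA and 0.0152% the direct repeat. The windows also differed in composition, with 72.0% G and C and 23 CpG dinucleotides for Me1, 53.6% and 2 for Thrsp and 48.8% and 5 for Gpd2, against medians of 52.4% and 6 over all windows. The motifs were chosen with the array results known, and a match is a description of these letters only.

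Dio1, the selenoenzyme that converts the prohormone thyroxine to the active hormone in liver, passed in no comparison, although its groups stood apart. Its log2 level was 11.37, 11.45 and 11.39 in double KO, 10.97, 10.73 and 9.67 in SMRT KO and 11.25, 11.26 and 11.25 in control livers. The 3 groups did not overlap in any pair, and the SMRT KO livers were the lowest. The double KO and control livers were tight (SD 0.0434 and 0.00327), whereas the SMRT KO livers were not (SD 0.688). Control replicates 1 and 3 had the same deposited value, 11.25059, so the control SD may understate the spread between mice. The log2 fold change was 0.15 in double KO against control (95% interval -0.44 to 0.75, limma adjusted p = 0.895), 0.95 in double KO against SMRT KO (0.35 to 1.55, adjusted p = 0.179) and -0.80 in SMRT KO against control livers (-1.39 to -0.20, adjusted p = 0.753). The first of these intervals includes the spread of the SMRT KO livers, because the fit pools the 3 groups. With only double KO and control livers fitted it was 0.03 to 0.28 (limma adjusted p = 0.363). The order of the means, double KO above control above SMRT KO, was that of Me1, Gpd2, Bcl3 and Idh3a.

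The Dio1 differences from SMRT KO livers depended in size on SMRT KO replicate 3. Without it, Dio1 in double KO against SMRT KO livers was 0.56 with a standard error of 0.0811 and passed (limma adjusted p = 0.0250, in a range of 0.0250 to 0.406 over 17 alternatives). The fit without this mouse had a smaller spread as well as a smaller difference. In the same fit SMRT KO against control was -0.40 and did not pass (adjusted p = 0.390). All 10 macrophage markers had a log2 fold change above 0 in SMRT KO against control livers, from 0.09 to 0.35, and 0 were called. So did 6 of 7 lymphocyte, 5 of 7 endothelial, 5 of 7 stellate cell and 3 of 4 cholangiocyte markers. Among hepatocyte markers 4 of 10 did, among adipocyte markers 1 of 4, and among all 22180 genes 11184. The part of these markers in the Dio1 values was not tested.

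Klf9, a zinc finger transcription factor of the Krüppel-like family, was lower in double KO than in control livers without passing. Its log2 level was 9.33, 9.50 and 9.87 in double KO, 10.24, 9.38 and 10.26 in SMRT KO and 9.99, 10.44 and 10.11 in control livers. Double KO livers lay below all control livers, while the SMRT KO livers spanned both, with replicate 2 near the double KO values. The log2 fold change was -0.61 in double KO against control (standard error 0.241, 95% interval -1.16 to -0.07, limma adjusted p = 0.390) and -0.39 against SMRT KO (adjusted p = 0.658). Its window, shown because its direction differed, held none of the 4 motifs and had 59.6% G and C.
Klf9 (chr19:23140976-23141225, plus strand): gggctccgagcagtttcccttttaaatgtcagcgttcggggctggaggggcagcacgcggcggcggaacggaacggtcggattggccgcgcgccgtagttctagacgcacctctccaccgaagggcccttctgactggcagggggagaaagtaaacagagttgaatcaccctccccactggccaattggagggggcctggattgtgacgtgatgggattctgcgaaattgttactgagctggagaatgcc

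Bcl3 and Hr, both nuclear regulators, passed in no comparison. Bcl3, an atypical member of the IκB family that works with NF-κB in the nucleus, had log2 levels of 8.42, 8.15 and 8.10 in double KO, 7.80, 8.06 and 7.64 in SMRT KO and 7.78, 8.14 and 8.04 in control livers. Double KO lay above SMRT KO livers without overlap and overlapped control livers. The log2 fold change of Bcl3 was 0.24 against control (limma adjusted p = 0.587) and 0.39 against SMRT KO (adjusted p = 0.310). Hr, which encodes the nuclear corepressor Hairless, had log2 levels of 6.44, 6.35 and 6.18 in double KO, 6.28, 6.39 and 6.35 in SMRT KO and 6.34, 6.35 and 6.47 in control livers. All 3 groups overlapped. The 95% interval of Hr in double KO against control livers, -0.24 to 0.11 on the log2 scale, was narrower than in the other 7. Hr was the dimmest of the 8 genes, just above the array medians of 5.96 to 6.02. The interval thus bounds a change of a low array signal, and need not bound that of the transcript as tightly.

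**Figure D2:**
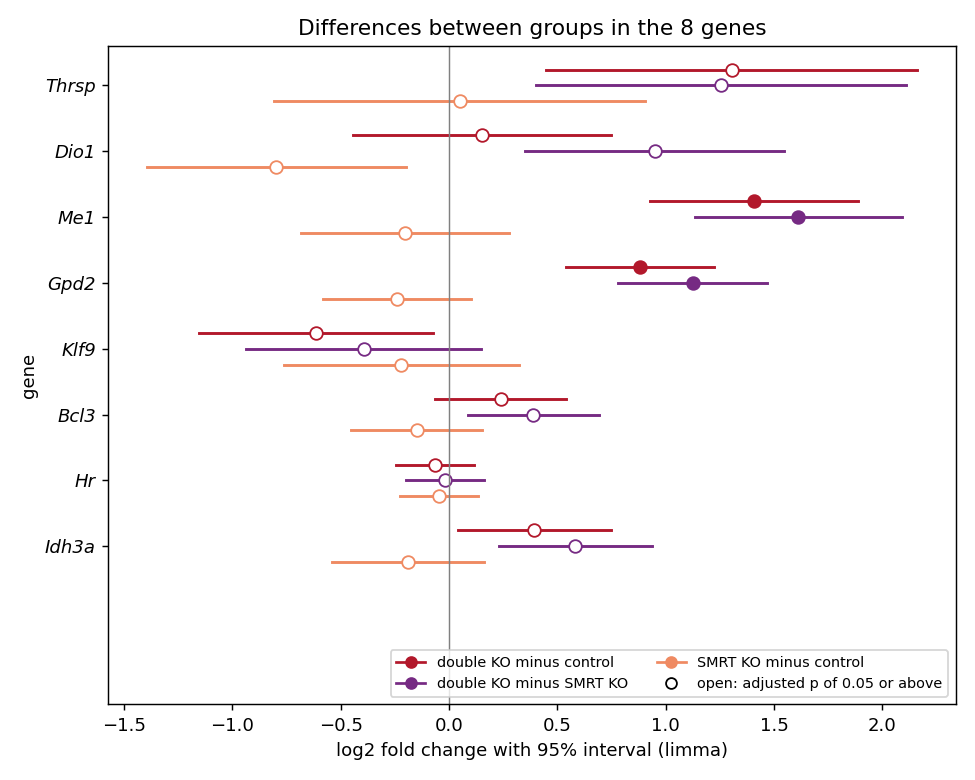
Log2 fold change with 95% interval (limma) of the 8 genes for double KO minus control, double KO minus SMRT KO and SMRT KO minus control. Filled points have an adjusted p below 0.05: these are Me1 and Gpd2 in both comparisons of double KO livers, and no gene in SMRT KO against control livers.

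Across the set, as over all genes, the groups stood apart more often than calls were made. In double KO against control livers 6 of the 8 genes had no overlap between the groups, 5 higher (Thrsp, Dio1, Me1, Gpd2 and Idh3a) and 1 lower (Klf9). Over all genes the groups did not overlap in 15.0%, 7.73% higher and 7.25% lower. In double KO against SMRT KO livers 6 genes were higher without overlap (Bcl3 besides the 5 above) and 0 were lower, against 7.54% and 6.21% of all genes, or 13.8% in either direction. In SMRT KO against control livers only Dio1 did not overlap, lower in SMRT KO, where 3.80% of all genes were higher and 4.36% lower without overlap, 8.16% in all. The median log2 fold change of the 8 genes was 0.32 in double KO against control, 0.77 in double KO against SMRT KO and -0.20 in SMRT KO against control livers. The same median over all genes lay within 0.01 of 0 in each comparison. These counts describe a list whose members were chosen with results of these arrays known.

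The comparison of double KO with SMRT KO livers depended in size on which SMRT KO mouse was left out. SMRT KO replicate 3 had the lowest value of its group in 6 of the 8 genes (all but Klf9 and Hr) and the lowest of all 9 livers in 5 (Dio1, Me1, Gpd2, Bcl3 and Idh3a). Over all genes, the same liver was the lowest of its group in 34.3%, and its share as the lowest of all 9 was not computed. Its median difference from the control mean over the 8 genes was -0.54, against -0.05 and -0.02 for SMRT KO replicates 1 and 2. The double KO livers had medians of 0.43, 0.33 and 0.22. Without SMRT KO replicate 3 the median log2 fold change of double KO against SMRT KO was 0.50, against 0.77 with all livers. It was 0.86 without SMRT KO replicate 1 and 0.94 without SMRT KO replicate 2. In the fit without SMRT KO replicate 3, Me1 (log2 fold change 1.32) and Gpd2 (0.94) still passed, with limma adjusted p of 0.00465 and 0.0105.

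**Figure D3:**
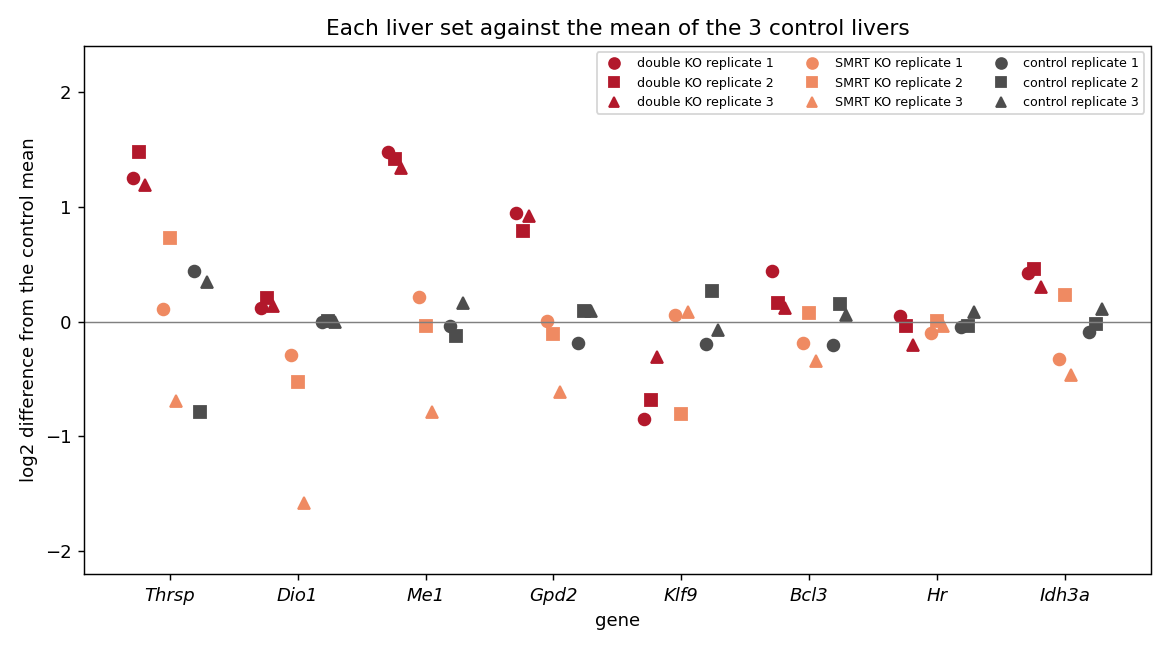
Log2 difference of each liver from the mean of the 3 control livers, by gene; colours give the group and marker shapes the replicate. Double KO livers sit near 1.4 for Me1 and 0.9 for Gpd2, and SMRT KO replicate 3 (orange triangle) is the lowest of its group in 6 of 8 genes.

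**Figure D4:**
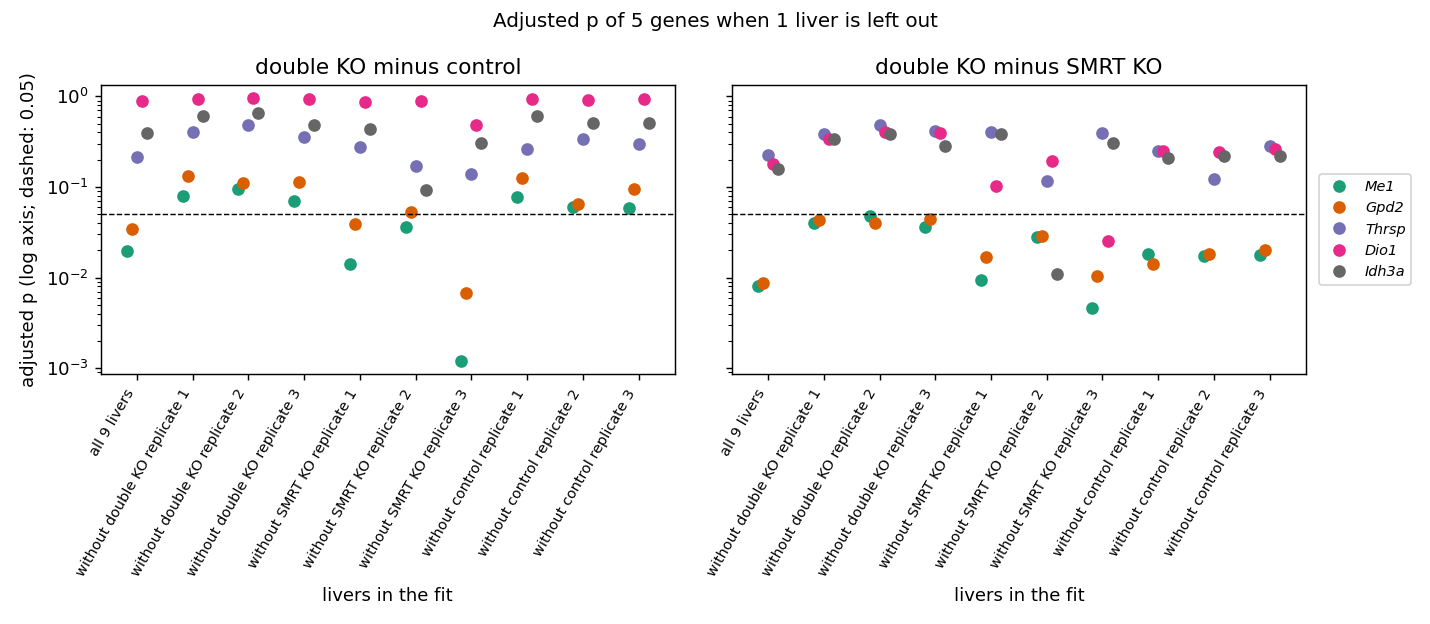
Adjusted p (log axis, dashed line at 0.05) of 5 genes with all 9 livers and with 1 liver left out, for double KO minus control and double KO minus SMRT KO. Me1 and Gpd2 stay below the line throughout in double KO against SMRT KO and cross it in most fits against control; Dio1 and Idh3a fall below it once each, without SMRT KO replicates 3 and 2.

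Other genes listed as induced by thyroid hormone moved in both directions in double KO livers. Of 12 such genes listed, 10 were measured. Among them Nrgn, named here for its low level, lay at 5.39 to 5.64, below every array median. In double KO against control livers 3 of the 10 rose (Fasn, Acaca and Mlxipl), 1 fell (Pck1) and 6 did not pass, with a median log2 fold change of 0.31. Of all genes, 0.523% rose and 0.320% fell in this comparison. The same counts, 3 and 1, were found against SMRT KO livers, with a median of 0.17, where 0.748% of all genes rose and 0.437% fell. In SMRT KO against control livers limma called 0 of the 10, with 1 at an unadjusted p under 0.05. Of all 22180 genes, 1331 had such a p there, and 0.00451% were called. Acaca, the acetyl-CoA carboxylase that commits acetyl-CoA to fatty acids, had log2 levels of 10.47, 10.50 and 10.33 in double KO, 9.49, 9.50 and 9.10 in SMRT KO and 9.47, 9.37 and 9.60 in control livers. The double KO livers were clear of the others, and the rise of 1.93-fold against control (limma adjusted p = 0.00692) held in all 9 fits without 1 mouse. Fasn, the fatty acid synthase, rose 2.06-fold against control (adjusted p = 0.0184) and 2.11-fold against SMRT KO (adjusted p = 0.0129). Mlxipl, which encodes the glucose-responsive transcription factor ChREBP, rose 1.61-fold against control (adjusted p = 0.0129) and 1.49-fold against SMRT KO (adjusted p = 0.0227). The Fasn call against control was lost without any 1 double KO or control mouse (adjusted p up to 0.0942), and that against SMRT KO without double KO replicate 1 or 2 or SMRT KO replicate 1 (up to 0.0710). The Mlxipl call against control was lost without double KO replicate 1 or 2 (up to 0.0670), and that against SMRT KO without any 1 double KO mouse or SMRT KO replicate 2 or 3 (up to 0.0928).

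Pck1, the phosphoenolpyruvate carboxykinase of glucose production, had log2 levels of 12.33, 12.30 and 12.33 in double KO, 13.16, 13.00 and 13.10 in SMRT KO and 13.10, 12.88 and 13.04 in control livers. All double KO livers were below the others. Pck1 was 1.61-fold lower in double KO than in control livers (limma adjusted p = 0.00395) and 1.70-fold lower than in SMRT KO livers (adjusted p = 0.00219), in all 9 fits without 1 mouse. Ppargc1a, the coactivator PGC-1α of glucose production and mitochondrial genes, was picked after its values were seen. Its log2 levels were 7.61, 7.94 and 7.68 in double KO, 8.97, 8.21 and 9.25 in SMRT KO and 8.91, 8.39 and 8.77 in control livers. The double KO livers again lay below the rest, and the log2 fold change of -0.94 against control did not pass (limma adjusted p = 0.159, in a range of 0.0407 to 0.373 over 17 alternatives).

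The receptors and coactivators that read the hormone did not change beyond the threshold. Of 10 genes (Thra, Thrb, Rxra, Rxrb, Ncoa1, Ncoa2, Ncoa3, Med1, Crebbp and Ep300), limma called 0 in each of the 3 comparisons, with 1 in each at an unadjusted p under 0.05. Over all 22180 genes, 2389, 2323 and 1331 had such a p. In double KO against control livers 4 of the 10 were lower without overlap (Thrb, Rxra, Crebbp and Ep300) and 0 higher. The shares of all genes were 7.25% lower and 7.73% higher. Log2 fold changes in double KO against control livers ranged from -0.18 to 0.05. Thrb, the main thyroid hormone receptor of liver, had log2 levels of 9.23, 9.14 and 9.13 in double KO, 9.28, 9.27 and 9.32 in SMRT KO and 9.45, 9.24 and 9.34 in control livers. The double KO livers were slightly below the others without overlap, and the log2 fold change of -0.18 against control did not pass (adjusted p = 0.381). Rxra, its usual partner, had -0.18 (adjusted p = 0.470).

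Partners and paralogs of the 8 genes were set beside them. Of 18 measured, limma called 0 in each comparison, with 3, 7 and 2 at an unadjusted p under 0.05 in double KO against control, double KO against SMRT KO and SMRT KO against control livers. Over all 22180 genes these counts were 2389, 2323 and 1331. The largest difference in double KO against control was in Mid1ip1, the paralog of Thrsp, with a log2 fold change of 0.66 (limma adjusted p = 0.237), and in Klf15, a relative of Klf9, with -0.38 (adjusted p = 0.172). Averaging the 3 probe sets of Mid1ip1 gave 0.34 (adjusted p = 0.366) in its place. For the isocitrate dehydrogenase, whose other subunits were looked at after their values were seen, Idh3b had 0.24 (adjusted p = 0.283) and Idh3g 0.04 (adjusted p = 0.876), beside 0.39 for the catalytic subunit Idh3a.

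**Figure D5:**
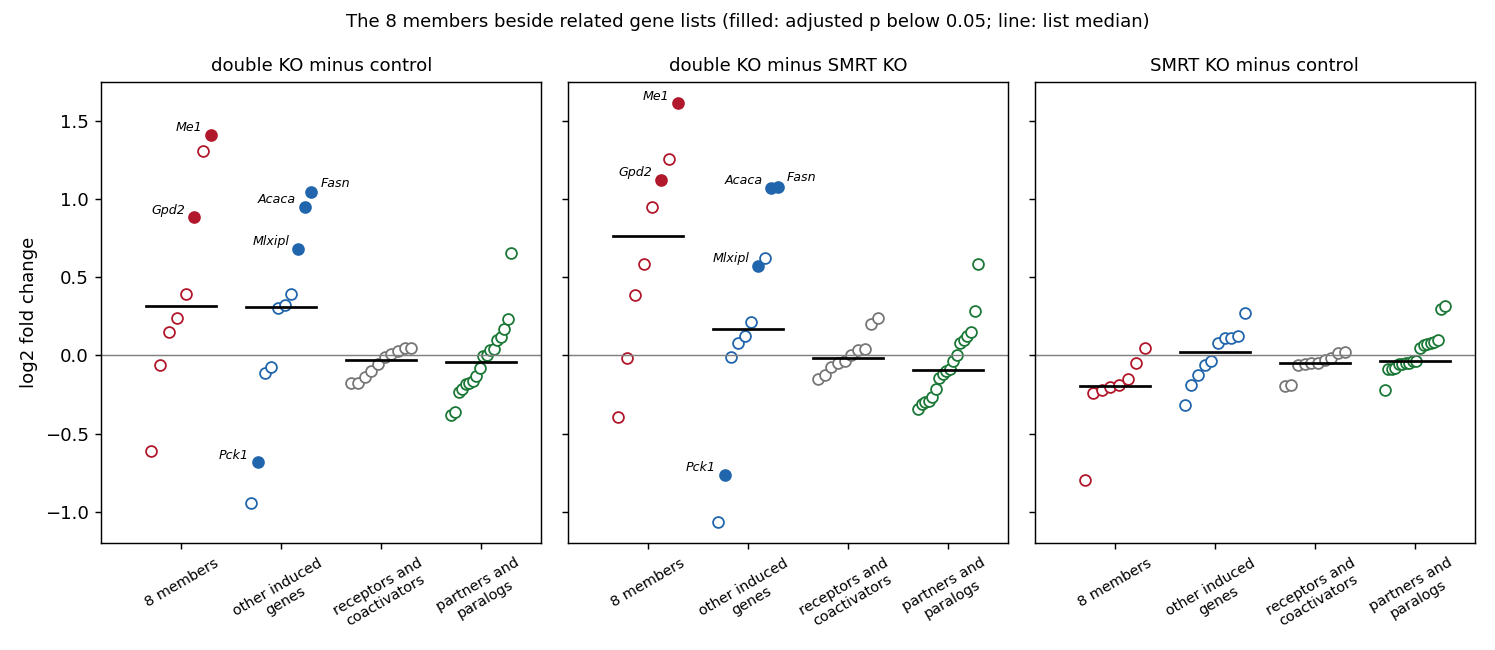
Log2 fold change of the 8 genes, 10 other thyroid hormone-induced genes, 10 receptors and coactivators and 18 partners and paralogs, for the 3 comparisons; filled points have an adjusted p below 0.05 and are named, and black lines are list medians. Called genes appear in the first 2 lists and only in comparisons of double KO livers.

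Genes whose level followed the same livers were sought by the root mean square difference over the 9 arrays, after each gene was centred on its own mean. This measure includes the differences between groups that the arrays share. Nearest to Me1 were Sucnr1, the succinate receptor (0.201 log2 units), Acot11, an acyl-CoA thioesterase (0.205), and Acaa1b, a peroxisomal thiolase of fatty acid oxidation (0.259), where Me1 itself varied by 0.762. Among the members, Gpd2 was the nearest to Me1, at 0.277. Nearest to Thrsp were Orm3, an orosomucoid of the acute phase (0.291), Sucnr1 (0.323) and Fasn (0.327). Nearest to Dio1 were Cyp7b1, an oxysterol hydroxylase of bile acid synthesis (0.250), Gm5622 (0.251) and Trim7 (0.269), where Dio1 varied by 0.528. Cyp7b1 ranged from 10.001 to 10.62 in double KO, 9.00 to 9.96 in SMRT KO and 10.001 to 10.39 in control livers. It did not pass in any comparison. Its low values in SMRT KO livers follow from its choice by likeness to Dio1, so they are not separate evidence.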

How the data were processed

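Liver RNA (200 ng per sample) of 9 mice was measured on 1 Affymetrix array each. The values the authors deposited are log2 expression per probe set; the submitters' processing notes name RMA. That method corrects background, forces all arrays to a common distribution and summarises the probes, so a shift shared by most genes would not be seen. Of 41345 probe sets, 23521 had 1 gene symbol in the platform annotation, 1814 had several and 16010 had none here. The probe set with the highest mean stood for a gene, which gave 22180 genes. Through Entrez IDs 23328 probe sets matched RefSeq, and 0 symbols changed.

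limma 3.58.1 in R 4.3.3 was fitted to all genes and all 9 arrays (lmFit, contrasts.fit and eBayes, 6 residual and 3.36 prior degrees of freedom). The 3 comparisons were double KO minus control, double KO minus SMRT KO and SMRT KO minus control, with Benjamini-Hochberg adjustment over 22180 genes within each. A gene was called at an adjusted p below 0.05. A permutation test of 3 mice against 3 could not pass and was not used. The fit was tested on simulated data.

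The members and lists were chosen with earlier results of these data known. The text names the 8 genes, each called gene of the related lists with the 2 largest log2 fold changes in double KO minus control, and the 3 nearest patterns of Thrsp, Dio1 and Me1. Genes outside this rule are said to be so. The lists held 6 further genes that are not reported here. The alternatives were 2 array scalings, a filter on dim genes, the mean of a gene's probe sets, a trended robust variance, array weights, the 2 groups compared alone, the replicate number as a block, and each mouse left out.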

Additional observations from a re-analysis of the deposited data

How the results depend on the processing

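The 8 genes in 3 comparisons were refitted under 17 alternatives, 408 values in all, of which 383 kept their direction and their side of the threshold. The count of the 8 genes called in double KO against control livers, 2, was 1 with the replicate number as a block and 0 to 2 with 1 mouse left out (0 without any 1 double KO or control mouse, 1 without SMRT KO replicate 2). Against SMRT KO livers it was 1 with only the 2 groups compared, where Me1 had an adjusted p of 0.0504, and 2 to 3 with 1 mouse left out. Of the other induced genes, 4 called, leaving out 1 mouse gave 2 to 5 against control and 2 to 4 against SMRT KO livers, and only the 2 groups gave 2 against SMRT KO. The median log2 fold change of the 8 genes against SMRT KO, 0.77, was 0.70 with array weights and 0.50 to 0.94 with 1 mouse left out. Signs turned in values that passed in no setting. In SMRT KO against control, Thrsp was -0.29 without SMRT KO replicate 2 and -0.34 without control replicate 2, in a range of -0.34 to 0.42 with 1 mouse left out. Me1 ranged from -0.41 to 0.089 and Klf9 from -0.37 to 0.071, above 0 only without SMRT KO replicate 3 and 2. Hr in double KO against control ranged from -0.12 to 0.0064, above 0 only without double KO replicate 3. Hr against SMRT KO ranged from -0.077 to 0.052, was 0.0059 without SMRT KO replicate 2 and highest without double KO replicate 3, and was 0.0022 with array weights. Over all genes, 187 calls in double KO against control became 109 with only the 2 groups, 285 with array weights and 61 to 179 with 1 mouse left out. The 263 against SMRT KO became 124 with only the 2 groups and 101 to 234 with 1 mouse left out. The 1 call in SMRT KO against control became 0, 2 with the block, and 0 to 23 with 1 mouse left out. Over all genes, the deviations of same-numbered mice correlated at r of -0.0845 to 0.117 (9 pairs, 1 over 0.1). Mice with different numbers gave r of -0.154 to 0.165, a wider range that holds the first. These correlations cannot exclude a pairing that touches few genes. With the replicate number as a block, Gpd2 in double KO against control had an adjusted p of 0.0735 and Me1 0.0391, and 152 genes in all were called. The causes of these changes were not tested, beyond the fewer mice in some fits.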
